A study of Homo sapiens with 6 samples.

Results

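The carcinoma surface antigens described here are 9 genes, MUC1, EPCAM, CD276, NECTIN2, MET, AXL, F3, PLAUR and CD44, out of 32692 genes in the deposited table. They were taken by gene symbol, and each symbol matched 1 row. The list was drawn up with the OTI-611 and DMSO values of this table in view, so the difference of each member between these groups is given as a description with no test. RNA was sequenced from DU145 cells given OTI-611 at 5 µM for 24 h (3 libraries) or DMSO, the solvent, for 24 h (3 libraries). DU145 is a prostate carcinoma line of human origin, and all libraries come from this 1 line. The sources used here give OTI-611 by code name, and the series title names the targeted protein as CHD1L, a chromatin remodeller. The labels do not say whether the libraries of a group came from separate cultures, so the errors and p-values reflect spread among these libraries that may be technical.

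These proteins share a place on the cell surface but not a pathway. MUC1 is a heavily glycosylated mucin and EPCAM a homophilic adhesion molecule, and both are classical markers of epithelial tumours. CD276 (B7-H3) and NECTIN2 (CD112) carry immunoglobulin domains and meet receptors of immune cells. MET and AXL are receptor tyrosine kinases for HGF and GAS6, F3 (tissue factor) starts blood clotting, PLAUR (uPAR) holds the protease urokinase at the membrane, and CD44 binds the matrix sugar hyaluronan. Several of them are targets of antibodies, antibody-drug conjugates or engineered T cells.

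The table names no unit, and its values were read as RPKM, which divide reads by gene length and by depth. Comparisons of levels between genes rest on that reading. DMSO 1 is given in whole numbers, which were taken as the same unit without decimals. In genes at 1 to 50 RPKM, DMSO 1 minus the mean of DMSO 2 and DMSO 3 averaged -0.521 RPKM. Steps between low values put the depth at 37.3 to 37.8 M reads per library with OTI-611 and at 30.7 and 32.4 M reads in DMSO 2 and DMSO 3, while none could be estimated in DMSO 1. The summed level of the 6 epithelial markers measured was 821 to 852 RPKM with OTI-611 and 921 to 970 RPKM with DMSO. These were keratins, CDH1 and EPCAM itself, and the keratins made up nearly all of the sum. KRT7 had 335 to 350 RPKM with OTI-611 and 418 to 441 RPKM with DMSO. KRT8 had 103 to 109 RPKM with OTI-611 and 146 to 153 RPKM with DMSO. The groups overlapped for KRT18 (94.7 to 104.8 RPKM with OTI-611, 99 to 99.8 RPKM with DMSO). They also overlapped for KRT19 (254.9 to 289.1 RPKM with OTI-611, 240 to 257.5 RPKM with DMSO). CDH1 (E-cadherin) had 1.45 to 1.71 RPKM with OTI-611 and 4 to 4.804 RPKM with DMSO, and its part in the differences of the antigens was not tested. All 5 leukocyte, 4 fibroblast and 5 endothelial genes measured stayed under 1 in every library. Of 5 prostate luminal genes measured, 4 also stayed under 1 in every library, KLK3 among them. In bulk RNA, fewer cells that carry a transcript and less transcript per cell cannot be told apart.

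The bases upstream of the start sites are shown first for MUC1, the member with the largest difference, then for MET and F3, which were higher with OTI-611, and for a stretch of PLAUR that shares a motif with F3. Sequences are from RefSeq on GRCh38.p14, in which 8 of the 9 symbols had an entry, and run 5′ to 3′ on the gene's strand. For MUC1, MET and F3, bases that an exon of the same gene covers in GENCODE release 29 were left off. Capitals mark matches to the motifs named after the sequences.
MUC1, chr1:155192917-155193165, minus strand: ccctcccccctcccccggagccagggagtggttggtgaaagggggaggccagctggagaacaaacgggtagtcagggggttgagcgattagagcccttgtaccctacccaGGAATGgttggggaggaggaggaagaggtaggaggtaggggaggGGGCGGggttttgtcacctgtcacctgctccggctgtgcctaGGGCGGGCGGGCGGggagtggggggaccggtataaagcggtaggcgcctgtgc
MET, chr7:116671946-116672195, plus strand: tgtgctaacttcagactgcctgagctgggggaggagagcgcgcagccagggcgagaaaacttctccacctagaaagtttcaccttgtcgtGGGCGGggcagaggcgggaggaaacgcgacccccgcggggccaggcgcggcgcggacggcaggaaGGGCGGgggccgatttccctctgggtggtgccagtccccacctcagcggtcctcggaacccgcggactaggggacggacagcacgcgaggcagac
F3, chr1:94541801-94542009, minus strand: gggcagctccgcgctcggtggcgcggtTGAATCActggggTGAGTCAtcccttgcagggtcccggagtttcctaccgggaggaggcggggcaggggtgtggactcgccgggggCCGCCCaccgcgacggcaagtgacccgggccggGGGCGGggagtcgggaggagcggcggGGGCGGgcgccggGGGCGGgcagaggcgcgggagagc
PLAUR, chr19:43670339-43670365, minus strand: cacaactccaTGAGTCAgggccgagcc

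The 9 motif patterns were searched on both strands of the 250 bases before each start, and 35116 RefSeq promoters of the same length gave the background. The GC box GGGCGG, a binding motif of SP1-type factors, was in 7 of the 8 members, all but PLAUR, and in 42.6% of all promoters. In MUC1 the pattern starts at positions -96, -54, -50 and -46 from the start site, and the last 3 of these matches overlap. The AP-1 pattern TGANTCA was in F3, at -223 and -210, and in PLAUR, at -186, and in 6.57% of all promoters. The TEAD pattern GGAATG was in MUC1 and in 1 of the RefSeq starts of AXL, and in 11.9% of all promoters. No match was found in these windows of the 8 members for the CRE pattern TGACGTCA (1.65% of promoters), the ATF4-C/EBP pattern TGATGNAA (3.14%), the FOXO pattern GTAAACA (2.98%), the STAT pattern TTCCNGGAA (0.968%), the E-box CACGTG (6.34%) or the ER stress element, CCAAT and CCACG with 9 bases of any kind between them (0.074%). The whole PLAUR window, with the 27 bases printed around its match, lies inside an exon of a longer GENCODE transcript. The CD44 window and the second window of CD276 also lie wholly inside exons of the same gene. A member with more than 1 RefSeq start counts when any of its starts matches, while the background counts each promoter, so the shares are not fully alike.

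The epithelial antigens behaved differently from each other. MUC1 (ENSG00000185499, chromosome 1 from 155185824 to 155192916 in GENCODE release 29) had 5.46, 4.21 and 6.01 RPKM in the OTI-611 libraries and 21, 21.6 and 23.3 RPKM in the DMSO libraries. Every OTI-611 library lay well below every DMSO library. The mean was 5.23 ± 0.92 RPKM with OTI-611 and 21.9 ± 1.2 RPKM with DMSO (SD, n = 3 each), 4.20-fold lower with OTI-611 and 4.29-fold lower against DMSO 2 and DMSO 3 alone. On the log2(value + 1) scale the difference was -1.89 ± 0.097 (SE). The absolute size of this difference exceeded that of 99.8% of the genes tested. The estimated reads behind these values were 742 to 1070 per OTI-611 library and 3121 and 3562 in DMSO 2 and DMSO 3, and those of the other members were 1131 to 44101 per library. These reads assume the length of all annotated exons of a gene, and the length behind the deposited values is not given. MUC1 protein is cleaved into a mucin part and a membrane part whose tail takes up signals, and the gene-level values do not tell its 29 annotated transcripts apart.

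EPCAM (ENSG00000119888, chromosome 2 from 47345158 to 47387601), whose cleaved tail can enter the nucleus, had 13.04, 15.2 and 13.1 RPKM with OTI-611 and 13, 14.6 and 14.0 RPKM with DMSO. The libraries of both groups lay over each other. The mean was 13.8 ± 1.2 RPKM with OTI-611 and 13.9 ± 0.83 RPKM with DMSO (SD, n = 3 each), a log2 difference of -0.01 ± 0.065 (SE). The SE exceeds the difference itself, and the sign turned in 5 of 15 alternative settings. Some of these settings, such as other filters, leave the difference unchanged and could not turn the sign.

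Both immunoglobulin-domain ligands were lower with OTI-611. CD276 (ENSG00000103855, chromosome 15 from 73683966 to 73714518) had 9.46, 10.4 and 9.62 RPKM with OTI-611 and 17, 15.9 and 18.2 RPKM with DMSO. NECTIN2 (ENSG00000130202, chromosome 19 from 44846175 to 44889228), an adhesion molecule that also binds PVRIG and TIGIT on lymphocytes, had 19.4, 17.8 and 18.9 RPKM with OTI-611 and 27, 28.5 and 29.3 RPKM with DMSO. For both genes the groups did not overlap. CD276 was 1.74-fold lower, with a log2 difference of -0.74 ± 0.055 (SE), and NECTIN2 was 1.51-fold lower, with a log2 difference of -0.57 ± 0.043 (SE). Without DMSO 1 the ratios were 1.74 and 1.55. Exons of another gene on the opposite strand cover 3.42% of the NECTIN2 exon bases, against at most 1.30% of those of any other member, and the strand setting of the authors' counting is not given in the sources used here.

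The receptor tyrosine kinases were at high levels in both groups. MET (ENSG00000105976, chromosome 7 from 116672390 to 116798386), which drives growth and scattering of epithelial cells, had 70.6, 68.1 and 70.7 RPKM with OTI-611 and 49, 48.3 and 47.5 RPKM with DMSO. The gap between the nearest libraries of the groups was far wider than the spread within either group. MET was 1.45-fold higher with OTI-611 and 1.46-fold higher without DMSO 1, a log2 difference of 0.52 ± 0.027 (SE). AXL (ENSG00000167601, chromosome 19 from 41219203 to 41261766), tied to invasive and drug-tolerant states, had 200.4, 194 and 195 RPKM with OTI-611 and 190, 188 and 189 RPKM with DMSO. Its libraries did not overlap, but the ratio of the means was 1.04. The log2 difference of AXL was 0.05 ± 0.023 (SE), turned to -0.03 after quantile normalization and stood at 0.11 after rescaling to the median log ratio, so its direction depends on the scaling.

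The receptors of clotting and proteolysis were higher with OTI-611. F3 (ENSG00000117525, chromosome 1 from 94529225 to 94541800) had 26.7, 24.9 and 26.4 RPKM with OTI-611 and 18, 18.6 and 21.0 RPKM with DMSO. PLAUR (ENSG00000011422, chromosome 19 from 43646095 to 43670547) had 69.6, 76.4 and 80.8 RPKM with OTI-611 and 39, 40.8 and 40.03 RPKM with DMSO. For both genes every OTI-611 library was above every DMSO library, and the OTI-611 libraries of PLAUR spread more than its DMSO libraries (SD of 5.65 against 0.926 RPKM). PLAUR was 1.89-fold higher, the largest positive log2 difference of the 9 (0.90 ± 0.049, SE), and 1.87-fold higher without DMSO 1. F3 was 1.36-fold higher, with a log2 difference of 0.42 ± 0.055 (SE), and 1.31-fold higher without DMSO 1.

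CD44 (ENSG00000026508, chromosome 11 from 35138870 to 35232402), the hyaluronan receptor and a widely used marker of tumour-initiating cells, had 115, 114 and 117 RPKM with OTI-611 and 92, 87.7 and 90.6 RPKM with DMSO. The groups did not overlap. The ratio of the means was 1.28, and 1.29 without DMSO 1, with a log2 difference of 0.35 ± 0.026 (SE). CD44 has 39 annotated transcripts, which include or skip variable exons, and the gene-level values do not tell these forms apart.

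**Figure D1:**
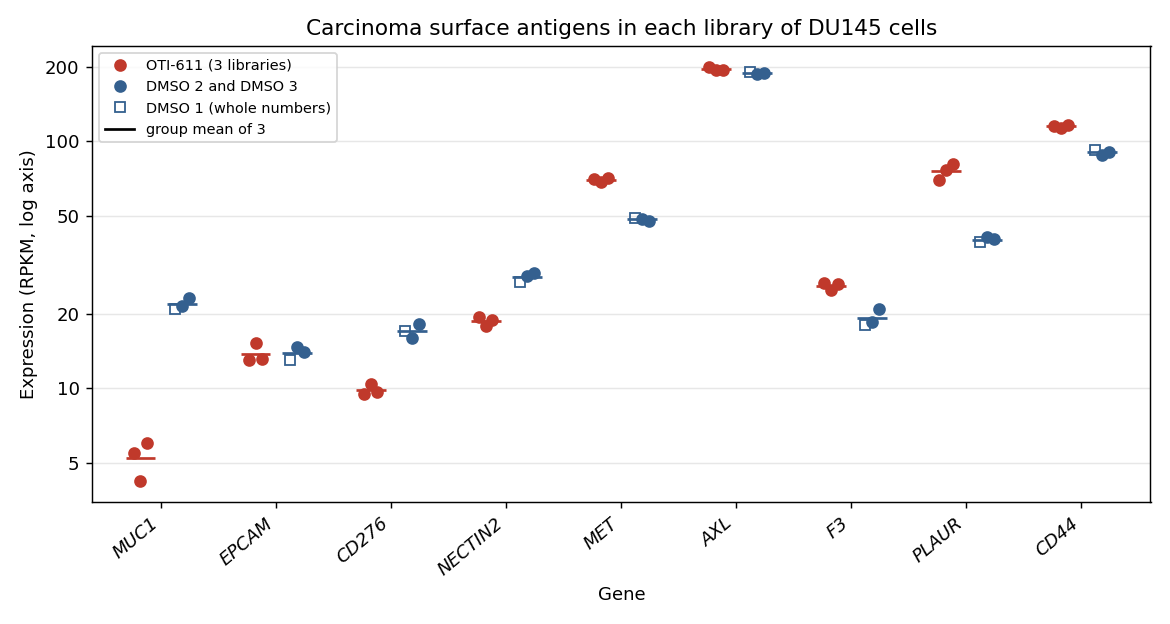
Each point is the RPKM of 1 library (log axis) for the 9 surface antigens, OTI-611 libraries in red to the left and DMSO libraries in blue to the right, with DMSO 1 as an open square and a bar at each group mean. MUC1, CD276 and NECTIN2 were lower with OTI-611, PLAUR, MET, F3 and CD44 were higher, AXL differed by a ratio of 1.04 and the EPCAM groups overlap.

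The order of the levels changed below AXL and CD44. With OTI-611 the order of the mean levels was AXL (196 RPKM), CD44 (115), PLAUR (75.6), MET (69.8), F3 (26.0), NECTIN2 (18.7), EPCAM (13.8), CD276 (9.82) and MUC1 (5.23). With DMSO it was AXL (189 RPKM), CD44 (90.1), MET (48.3), PLAUR (39.96), NECTIN2 (28.25), MUC1 (21.9), F3 (19.2), CD276 (17.0) and EPCAM (13.9). Neighbours did not differ beyond their spread for PLAUR and MET with OTI-611 and for F3 and CD276 with DMSO. MUC1 thus stood in sixth place with DMSO and in last place with OTI-611. PLAUR stood below MET in every DMSO library, while its OTI-611 libraries lay on both sides of those of MET. Set among the tested genes by level with DMSO, AXL stood at the 98.3rd percentile, CD44 at the 95.0th, MET at the 89.3rd, PLAUR at the 86.4th and NECTIN2 at the 80.15th. MUC1 stood at the 74.55th, F3 at the 71.4th, CD276 at the 68.4th and EPCAM at the 62.55th percentile.

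Across the 9 genes, 5 had all OTI-611 libraries above all DMSO libraries, 3 had them all below and EPCAM overlapped. Such separation held for 70.2% of the 11978 genes tested, with 30.5% higher and 39.7% lower. With 1 library left out at a time, the log2 difference ranged from -1.98 to -1.77 in MUC1, from -0.78 to -0.69 in CD276 and from -0.60 to -0.54 in NECTIN2. It ranged from 0.85 to 0.96 in PLAUR, from 0.51 to 0.54 in MET, from 0.38 to 0.48 in F3 and from 0.33 to 0.37 in CD44, and no range of these 7 reached 0. EPCAM ranged from -0.08 to 0.02 and AXL from 0.04 to 0.06. Because the members were chosen on this contrast, nothing is read from the counts of separate libraries. The median log2 difference of the 9 was 0.05, and that of all genes tested was -0.05.

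**Figure D2:**
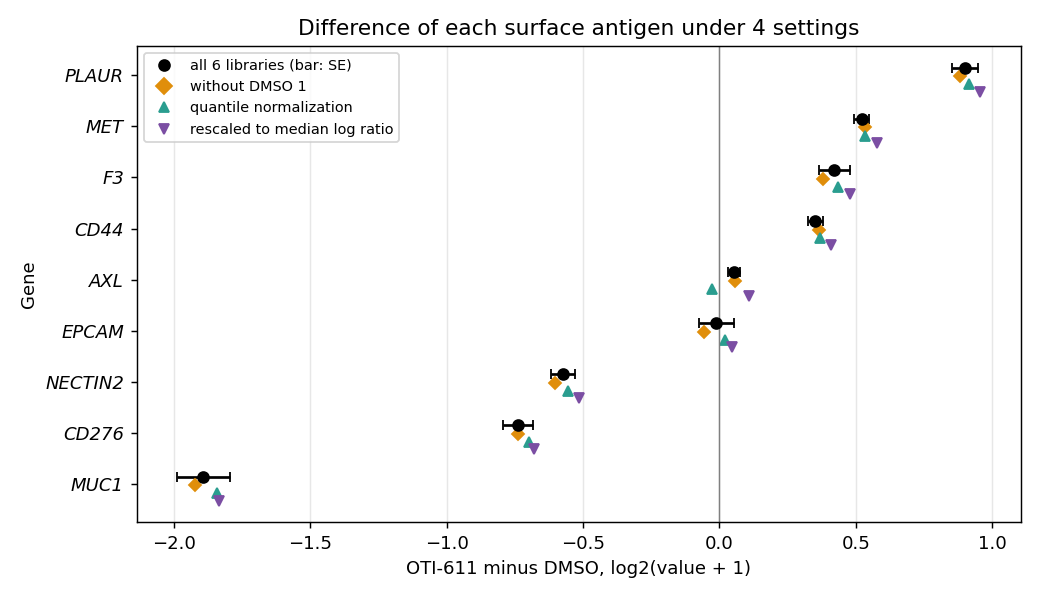
The x axis gives OTI-611 minus DMSO on the log2(value + 1) scale for each surface antigen, with all 6 libraries (black, bar: SE), without DMSO 1, after quantile normalization and after rescaling to the median log ratio. MUC1 stands apart near -1.89, PLAUR is highest at 0.90, and AXL and EPCAM are the members whose markers fall on both sides of 0.

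The genes whose profile over the 5 libraries with decimals was closest to that of a member were looked up among 7380 protein-coding genes with a mean of at least 5, for the members with the highest and the lowest difference. For PLAUR these included ELL2 and PDE4DIP, at Euclidean distances of 0.0542 and 0.0759 on the centred log2(value + 1) scale. ELL2 had 26.2, 28.7 and 29.2 RPKM with OTI-611 and 13, 14.6 and 14.4 RPKM with DMSO. For MUC1 they were TP53I3, NNMT and TUBA1A, at distances of 0.2545, 0.265 and 0.272. TP53I3 averaged 10.7 RPKM with OTI-611 and 42.2 RPKM with DMSO. These points share their libraries and the group difference, so the likeness is a description of 5 libraries.

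The partner genes of the antigens, grouped into 10 lists by role, were tested in the same fit over all genes. Of 240 genes listed, 140 were tested, and 42 rose and 74 fell with OTI-611 (limma, adjusted p under 0.05). The share that passed was 82.9%, beside 65.2% of all genes tested, of which 27.8% were higher and 37.3% lower. This excess of lower calls depended on the scaling: over all genes, 4085 were higher and 4115 lower after quantile normalization, and 3986 and 3978 after rescaling to the median log ratio. The median log2 difference was -0.15, beside -0.05 for all genes. The lists were drawn up with earlier results of these data known, and their genes were not matched to other genes by level. With a mean of at least 5 required, 2700 of 7771 genes were higher and 3179 lower. The larger share that passed is therefore not read as a trait of the partner genes. In each list 75% to 100% passed, and its counts are read beside the shares over all genes.

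**Figure D3:**
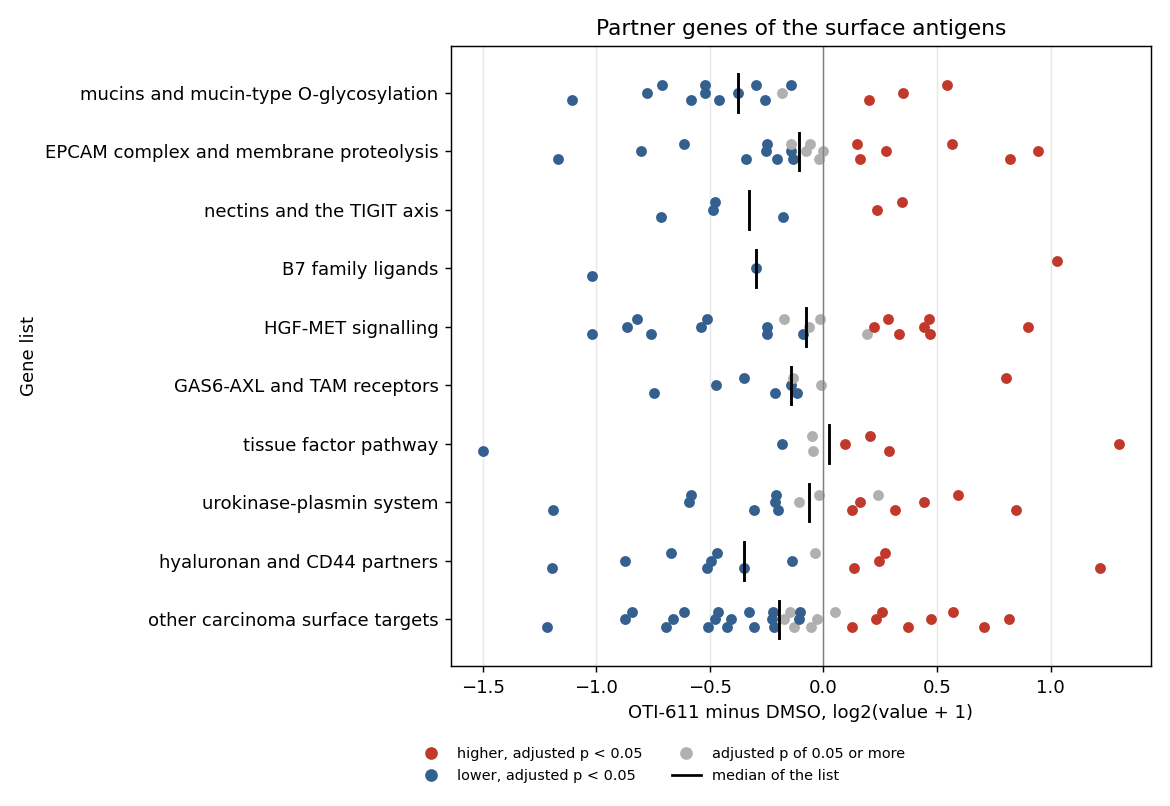
Each point is 1 tested partner gene, placed by OTI-611 minus DMSO on the log2(value + 1) scale, in 10 lists from top to bottom; red points rose and blue points fell at a limma adjusted p under 0.05, grey points did not pass, and black bars are list medians. The mucin and hyaluronan lists have medians of -0.38 and -0.35, and every list holds genes on both sides of 0.

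Genes of mucin-type O-glycosylation, nearly all of which attach or extend the sugar chains that cover MUC1, mostly fell. Of 15 tested genes, 11 fell and 3 rose, 93.3% in all, beside 65.2% of all genes tested. Their median log2 difference was -0.38, beside -0.05 for all genes. The 11 include LGALS3, named after its values were seen, a lectin gene whose protein binds sugar chains. LGALS3 is also counted in the AXL list. GALNT2, a transferase that adds the first sugar to serine or threonine, had 32.3, 33.2 and 35.1 RPKM with OTI-611 and 71, 74.9 and 74.5 RPKM with DMSO. It fell by 1.11 on the log2 scale (limma adjusted p = 2.95e-08), with no overlap between the groups. The related transferases GALNT18, GALNT10 and GALNT1 fell by 0.71, 0.58 and 0.38 on that scale. The 3 that rose, named after their values were seen, were C1GALT1 (0.54), which makes the core 1 chain, GALNT7 (0.20) and B3GNT3 (0.35). The call for B3GNT3, a low gene, was lost without OTI-611 1, OTI-611 2, OTI-611 3 or DMSO 2, left out 1 at a time (limma adjusted p of 0.0879 to 0.118). It was also lost with no filter on low values, with the replicate block and with 0.5 added to DMSO 1 (limma adjusted p of 0.0609 to 0.192). Of the other mucins, MUC3A, MUC5B, MUC12 and MUC16 lay under the mean of 1 required for testing.

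Partners and proteases of EPCAM went both ways. Of 20 tested genes of this list, 6 rose and 9 fell, 75% in all, beside 65.2% of all genes tested. The list median of the log2 difference was -0.11, beside -0.05 for all genes. The sheddase gene ADAM17 rose to 38.5, 40.6 and 38.6 RPKM with OTI-611, against 26, 26.2 and 26.4 RPKM with DMSO, a log2 difference of 0.56 (limma adjusted p = 5.43e-07). The related ADAM10 fell by 0.25 on the log2 scale and ADAM8 rose by 0.94, both named after their values were seen. RHBDF2, a partner that escorts ADAM17 to the surface, fell by 0.61, and the beta-secretase gene BACE1 fell by 1.17. FHL2, a binding partner of the released EPCAM tail, rose by 0.82. CLDN7, a claudin that binds EPCAM, was at or under 0.112 RPKM in every library, and ST14, the protease matriptase that cleaves EPCAM, was at or under 0.789 RPKM.

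The nectin relatives were split. Of 6 tested genes, 4 fell and 2 rose, 100% in all, beside 65.2% of all genes tested. Their median log2 difference was -0.33, beside -0.05 for all genes. PVR (CD155), also a ligand of TIGIT, rose to 34.6, 32.7 and 34.8 RPKM with OTI-611, against 28, 28.9 and 29.4 RPKM with DMSO (log2 difference 0.24, limma adjusted p = 2.74e-04). NECTIN2 and PVR thus stood at close levels with DMSO, 28.25 and 28.75 RPKM, and at 18.7 and 34.0 RPKM with OTI-611. NECTIN1 fell by 0.71 on the log2 scale and the adhesion gene CADM1 by 0.48, and AFDN, the afadin that links nectins to actin, rose by 0.35. CADM4 fell by 0.49 and NECTIN3 by 0.18, both named after their values were seen. The NECTIN3 call was lost in 6 alternative settings, among them those without OTI-611 2, DMSO 2 or DMSO 3 (limma adjusted p of 0.0503 to 0.0992). The lymphocyte receptors TIGIT, CD226, CD96 and PVRIG were under the minimum for testing.

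Of the B7 relatives of CD276, 3 could be tested, and 1 rose and 2 fell, 100% in all, beside 65.2% of all genes tested. CD274 (PD-L1), the ligand of the T cell checkpoint PD-1, had 10.5, 10.3 and 10.7 RPKM with OTI-611 and 4, 4.796 and 5.23 RPKM with DMSO. It rose by 1.03 on the log2 scale (limma adjusted p = 3.48e-06), with every OTI-611 library above every DMSO library. VSIR (VISTA) had 2.83, 2.49 and 2.55 RPKM with OTI-611 and 6, 6.23 and 6.76 RPKM with DMSO, a fall by 1.02. NCR3LG1 (B7-H6), a ligand of natural killer cells, fell by 0.30.

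The MET list also went both ways. Of 20 tested genes, 7 were higher and 9 lower, 80% in all, beside 65.2% of all genes tested. The list median of the log2 difference was -0.07, beside -0.05 for all genes. SHC1, an adaptor of receptor kinases, fell to 97.5, 96.8 and 101 RPKM with OTI-611, against 173, 176 and 173 RPKM with DMSO (log2 difference -0.82, limma adjusted p = 1.81e-08). CBL, the ubiquitin ligase that sends MET to degradation, rose to 31.0, 30.8 and 32.4 RPKM with OTI-611, against 16, 16.8 and 16.3 RPKM with DMSO, a log2 difference of 0.90. In both genes the groups were far apart. The phosphatase genes PTPN1 and PTPRJ, which act on MET, fell by 0.87 and 1.02, while PTPN2 rose by 0.47, and STAT3 fell by 0.54. PTPRJ and PTPN2 were named after their values were seen. No gene under the symbol HGF was among the deposited values, so this ligand of MET could not be tested.

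Among ligands and relatives of AXL, 1 of 9 tested genes rose and 6 fell, with a median log2 difference of -0.14. In all 77.8% passed, beside 65.2% of all genes tested, whose median was -0.05. GAS6, the main ligand of AXL and far below it in level, had 11.6, 12.1 and 11.9 RPKM with OTI-611 and 16, 17.2 and 17.4 RPKM with DMSO. It fell by 0.47 on the log2 scale (limma adjusted p = 1.16e-05). PROS1 (protein S), a ligand of the related receptors, fell by 0.12, a call that was lost after rescaling to the median log ratio (limma adjusted p = 0.269). MERTK was the 1 gene that rose: it had 4.55, 4.55 and 4.48 RPKM with OTI-611 and 2, 2.26 and 2.25 RPKM with DMSO, a log2 difference of 0.80 (limma adjusted p = 1.20e-05). TYRO3, named after its values were seen, had 4.34 ± 0.24 RPKM with OTI-611 and 4.39 ± 0.34 RPKM with DMSO (SD, n = 3 each) and did not pass. AXL was thus the most abundant of the 3 receptors, at 196 RPKM with OTI-611 and 189 RPKM with DMSO. VKORC1L1, which recycles the vitamin K needed to mature GAS6, fell by 0.35, and the low gene TUB, of the tubby family, fell by 0.74.

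In the tissue factor pathway 4 of 8 tested genes rose and 2 fell, 75% in all, beside 65.2% of all genes tested. Their median log2 difference was 0.03, beside -0.05 for all genes. TFPI2, a protease inhibitor of the TFPI family, had 11.0, 12.3 and 12.5 RPKM with OTI-611 and 4, 4.44 and 4.32 RPKM with DMSO. It rose by 1.30 on the log2 scale (limma adjusted p = 2.32e-07). TFPI itself, the main inhibitor of the F3 and factor VII complex, had 12.9, 12.9 and 12.9 RPKM with OTI-611 and 14, 13.1 and 13.1 RPKM with DMSO, and did not pass (limma adjusted p = 0.320). The protease-activated receptor genes differed: F2RL1, the PAR2 that F3 complexes cleave, rose by 0.29, and F2RL2 fell by 1.499 on the log2 scale, to 3.34, 3.34 and 2.67 RPKM with OTI-611 against 11, 11.0 and 9.88 RPKM with DMSO. ANXA5 (0.10) rose and F2R (-0.18) fell, both named after their values were seen, and neither call held after quantile normalization (limma adjusted p of 0.312 and 0.116). The F2R call was also lost without OTI-611 1, OTI-611 2, OTI-611 3 or DMSO 2 (limma adjusted p of 0.0667 to 0.126). The clotting factor genes F7 and F10 were under the minimum for testing.

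In the urokinase system 6 of 16 tested genes rose and 7 fell, 81.2% in all, beside 65.2% of all genes tested. The list median of the log2 difference was -0.06, beside -0.05 for all genes. PLAU, the urokinase that PLAUR binds and whose level was above that of PLAUR in every library, had 159, 150.4 and 165 RPKM with OTI-611 and 139, 137 and 149 RPKM with DMSO. The nearest libraries of the groups were 150.4 and 149 RPKM, and the rise of 0.16 on the log2 scale (limma adjusted p = 0.00808) was lost with no filter on low values (limma adjusted p = 0.0566). ITGA3 and ITGB1, integrin chains that associate with PLAUR, rose by 0.85 and 0.31. Of the other integrin chains listed, ITGAV fell (log2 difference -0.21) and ITGB3 did not pass (limma adjusted p = 0.0965), both named after their values were seen. S100A10, which with ANXA2 docks plasminogen at the surface, had 458, 444 and 477 RPKM with OTI-611 and 1048, 1034 and 1067 RPKM with DMSO, a fall by 1.19 (limma adjusted p = 9.78e-09). ANXA2 fell by 0.20 and the inhibitor gene SERPINE2 rose by 0.59, both named after their values were seen, and ENO1, a plasminogen receptor besides its glycolytic role, fell by 0.58.

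Of 13 tested genes around CD44 and its ligand hyaluronan, 8 fell and 4 rose, 92.3% in all, beside 65.2% of all genes tested. Their median log2 difference was -0.35, beside -0.05 for all genes. The hyaluronan synthase gene HAS3 had 8.34, 7.99 and 8.74 RPKM with OTI-611 and 15, 16.7 and 16.8 RPKM with DMSO, a fall by 0.87 (limma adjusted p = 1.03e-06). UGDH, which makes a sugar precursor of hyaluronan, fell by 0.50, and CEMIP2, a surface protein tied to hyaluronan breakdown, fell by 1.19, to 13.9, 14.2 and 14.3 RPKM with OTI-611 against 33, 33.2 and 34.6 RPKM with DMSO. The 4 that rose were the ezrin, radixin and moesin genes EZR (0.25), RDX (0.27) and MSN (0.14), named after their values were seen, and MMP14. MMP14, a membrane protease that cleaves CD44, had 22.4, 23.1 and 25.5 RPKM with OTI-611 and 9, 10.1 and 9.73 RPKM with DMSO (log2 difference 1.22, limma adjusted p = 2.00e-07). HAS2 was at or under 0.101 RPKM in every library.

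**Figure D4:**
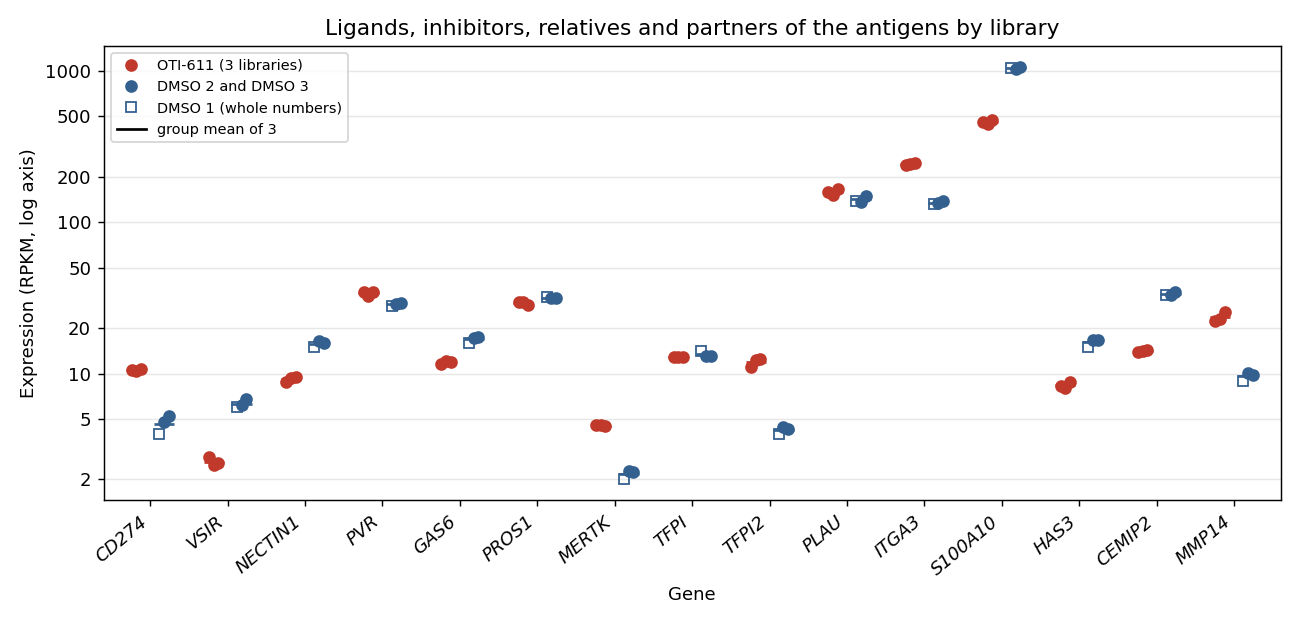
Each point is the RPKM of 1 library (log axis) for 15 partner genes, with OTI-611 libraries in red to the left, DMSO libraries in blue to the right and bars at the group means. CD274, MERTK, TFPI2, ITGA3 and MMP14 are higher with OTI-611, VSIR, NECTIN1, GAS6, S100A10, HAS3 and CEMIP2 are lower, and the libraries of TFPI and PLAU lie close together.

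Among other surface proteins that are targeted on carcinoma cells, 8 of 32 tested genes rose and 18 fell, with a median log2 difference of -0.20. In all 81.2% passed, beside 65.2% of all genes tested, whose median was -0.05. TFRC, the transferrin receptor, had 237, 242 and 241 RPKM with OTI-611 and 148, 145 and 147 RPKM with DMSO, a rise by 0.71 (limma adjusted p = 2.29e-08). CD55, which shields cells from complement, rose by 0.82 and the tetraspanin CD63 by 0.47. GPC1, a glypican, had 81.5, 85.6 and 89.1 RPKM with OTI-611 and 133, 139 and 134 RPKM with DMSO, a fall by 0.66. The groups did not overlap for any of these 4 genes. They were named for the smallest p of the list, so they do not mirror its counts. Such separation held for 70.2% of all genes tested.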

How the data were processed

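Libraries were grouped by their titles, and the members and gene lists were chosen with earlier results of these data known. The table names no unit. From decimals, sums and the steps between low values, 5 of the deposited columns were read as RPKM, and FPKM would look alike. The authors deposited DMSO 1 as whole numbers only, so that column is treated as a score on the same scale. The submitters' processing notes name CASAVA 1.7, TopHat2 2.0.9, Cufflinks 2.1.1 and HTSeq without their roles, and the mouse build mm10, although all 32692 gene IDs are human Ensembl IDs. Columns left unused: 0. The annotation is GENCODE release 29, in which 30667 IDs were found.

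Values were analysed as log2(value + 1), which understates the change of low genes, keeping genes whose mean reached 1, in limma 3.58.1 under R 4.3.3 (group as the only term, variance trend, two-sided, Benjamini-Hochberg over 11978 genes, threshold 0.05). Ratios are of the values themselves. Depth was estimated from the value steps of genes with 1 annotated transcript, in which 87.6% to 88.7% of low values were whole reads within 0.05. With these depths, the median squared difference was 3.24 to 5.24 times the counting expectation within groups and 61.4 to 72.2 times between groups, so the 5 libraries compared are distinct. Libraries are amplified without molecular identifiers, so reads are not molecules. Named genes are the 9 members, up to 4 genes with the smallest p of each list, and fixed ligands and inhibitors. Others are said to be named after their values were seen. Genes picked by smallest p are likely to have groups that do not overlap, so their separation is only a description. Alternatives were each library left out, other pseudocounts, filters and scalings, a replicate block, no variance trend and 0.5 added to DMSO 1. A few genes that this rule or the marker lists name are not reported here.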

Additional observations from a re-analysis of the deposited data

How the results depend on the processing

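The counts of genes higher and lower, over all genes and over the partner genes, stayed within 1.5 times in all 15 alternatives. The counts of antigens with separate libraries also did, but most alternatives could not lower them. Pseudocounts, filters, the replicate block and the variance trend leave the order of the libraries unchanged, and leaving out a library cannot end a separation. The 3332 genes higher and 4473 lower became 4085 and 4115 after quantile normalization and 3986 and 3978 after rescaling to the median log ratio, which ended the excess of lower calls. Without DMSO 1, 3145 genes were higher and 5081 lower, and 42 and 76 of the partner genes. MUC1, CD276, NECTIN2, MET, F3, PLAUR and CD44 kept their sign in every alternative. Of these, the filters, the replicate block and the fit without a variance trend leave a log2 difference unchanged and could not turn it. The AXL difference of 0.05 turned to -0.0255 after quantile normalization, and the cause was not tested. TFPI (-0.05) stood at 0.0078 after rescaling to the median log ratio. TYRO3 (-0.01) stood at 0.0899 after quantile normalization, at 0.0440 after rescaling and between -0.0646 and 0.0232 with 1 library left out. Neither TFPI nor TYRO3 passed in the reported fit. MUC1 stood at -2.06 with a pseudocount of 0.1. Over all alternatives, values of named partner genes kept sign and call 965 times, lost the call 24 times and turned sign 6 times. The labels number the replicates in both groups, but same-numbered libraries did not deviate together (correlations of 0.019, 0.0004 and -0.058), and with the replicate block 3327 genes were higher and 4429 lower. The whole numbers of DMSO 1 limit what can be said of genes near 1 RPKM, and the depth of that library is unknown.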
